A study of Saccharomyces cerevisiae with 12 samples.

Results

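The 10 genes described here are KDX1, PRM5, PST1, YPS1, YPS3, NCW2, SVS1 and PTP2, which are read as output of the wall damage factor Rlm1, and the glucan synthase genes GSC2 and FKS1. They were taken by systematic identifier from a table of 7192 features of the budding yeast Saccharomyces cerevisiae, and all 10 were present and passed the filter on low counts. The comparison was of 6 cultures treated with the lectin CSL of the clam Cyclina sinensis (lectins are proteins that bind sugars), numbered 2, 3, 4, 5, 6 and 8, and 6 cultures that received none, numbered 2, 3, 4, 6, 7 and 8. Both groups were labelled wild type and were cultured at 30 °C in the rich medium YPD, shaken at 200 rpm, until mid-log phase. The title names the lectin as binding N-acetylgalactosamine and mannose. Its dose, the length of the incubation, the strain and any mock treatment of the controls were not given in the labels.

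Mannose is abundant on the outside of the yeast cell wall, as the side chains of wall mannoproteins, and beta-glucan forms the inner, load-bearing layer. When the wall is weakened, membrane sensors of the Wsc and Mid2 type act through the small GTPase Rho1, protein kinase C and a MAP kinase cascade on the kinase Slt2. Slt2 phosphorylates Rlm1, a MADS-box transcription factor whose targets are mostly wall proteins and wall enzymes, so their mRNAs are widely used as a readout of wall damage. Rho1 is also a regulatory subunit of the glucan synthase, whose catalytic subunit is Fks1 in growing cells and Gsc2 (also called Fks2) mainly under stress.

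The full Rlm1 consensus, which reads the same on both strands, occurred within 1000 bases before the start codon of PST1, YPS1 and PTP2, that is in 3 of the 10 members, against 3.10% of 5996 such windows in the genome. The SCB element is bound by the Swi4-Swi6 factor (SBF), on which Slt2 also acts. Of its core, only the form CGCGAAA was searched, on either strand. This form occurred in the windows of YPS3 and FKS1, against 7.91% of windows. The stretches below show where these letters lie, with 10 bases on each side, 5′ to 3′ on the strand of the gene, and with the matching letters in capitals. They come from the RefSeq copy of the R64 assembly, the build named in the submitters' processing notes. None of the 5 stretches lies in an annotated gene. The distance is that of the first matching base from the start codon. A match is a description of the letters only.
PST1, chrIV:563212-563241, + strand, 305 bases before the start codon: ttacgagtctCTAAAAATAGcgtaggcaca
YPS1, chrXII:388708-388737, - strand, 507 bases before the start codon: acaatagacaCTATATATAGacactttttc
PTP2, chrXV:733873-733902, + strand, 42 bases before the start codon: atccccagtgCTATTAATAGtttacaataa
YPS3, chrXII:390498-390524, - strand, 244 bases before the start codon: ctcttattttTTTCGCGcttcctttgt
FKS1, chrXII:809485-809511, + strand, 502 bases before the start codon: ggcgacgaatTTTCGCGttttgatgaa

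Each library held 17303313 to 21354011 counts in the lectin group and 17380109 to 19753992 in the control group, and the lowest raw count of any member in any sample was 924. Lectin 5 stood apart from the other treated samples: on the first principal component of all tested genes its distance from the mean control position was 53.4% of the mean distance of the other 5, and for each of those 5 the same measure was 83.9% or more. Calls that changed without it are given below with their values. The strain's mating type was not given. The mean counts, after scaling for depth, of 4 genes of a cells (MFA1, MFA2, STE2 and BAR1) lay between 47.6 and 312 with lectin and between 66.8 and 442 in the controls. Those of 3 genes of alpha cells lay between 138 and 640 with lectin and between 134 and 1068 in the controls, so that neither set was at 0. All 4 a-cell genes and 1 of the 3 alpha-cell genes were called lower with lectin, beside 16.1% of all genes tested. The part of this in the results below was not tested.

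With lectin, 5 of the 10 members were called higher (PST1, YPS3, PTP2, PRM5 and KDX1), 1 was called lower (SVS1), and 4 did not pass the test (NCW2, GSC2, YPS1 and FKS1). A gene was called at an adjusted p under 0.05 in the DESeq2 Wald test over all 6237 genes tested, a rule that called 31.5% of them, 15.4% higher and 16.1% lower. The changes were small. None of the 10 reached an absolute log2 fold change of 1, the study's own size threshold, which 0.257% of genes passed together with the test. On the log2 scale the largest change was the decrease of SVS1 (-0.53), and the next was the increase of PST1 (0.44), which is 35.4% above the controls. In these bulk cultures, a change in the share of cells that express a gene and a change in the amount of its RNA per cell cannot be told apart. The median log2 fold change (lectin over control throughout) was 0.16 over the members and 0.00 over all genes tested. The 10 genes together held 0.927% ± 0.0573 of all counts with lectin and 0.829% ± 0.0355 in the controls (SD, n = 6 each). The ranges overlapped, 0.832% to 0.984% with lectin and 0.790% to 0.880% in the controls. Of the members, PST1 had the largest rise in mean counts after scaling for depth, from 34843 in the controls to 47166 with lectin.

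**Figure D1:**
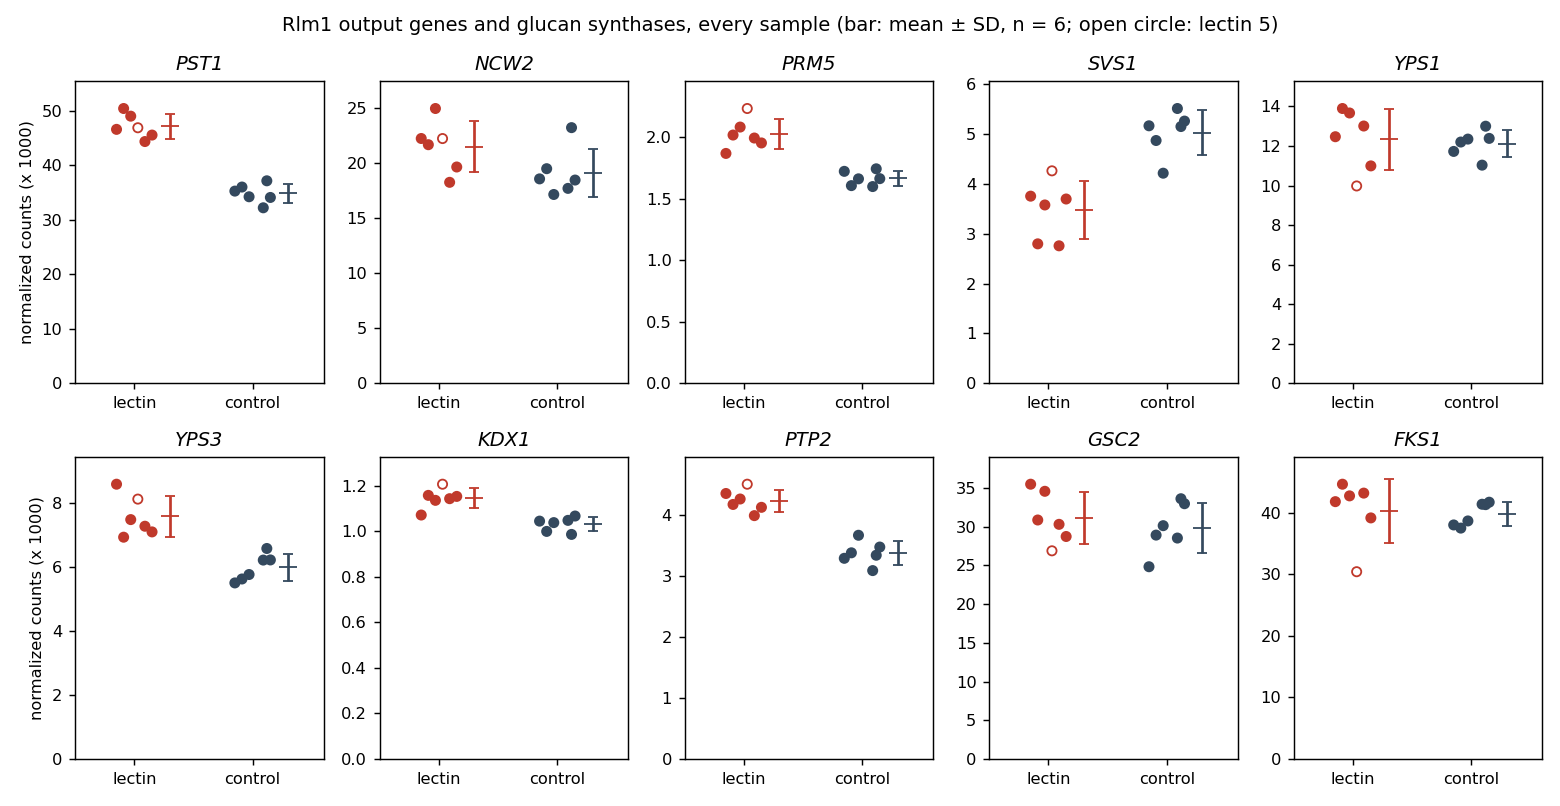
Normalized counts, on a linear axis from 0, of the 10 members in each of the 6 lectin and 6 control samples, with the mean and SD beside the points. In PST1, PRM5, YPS3, KDX1 and PTP2 every lectin sample lies above every control sample, in SVS1 only lectin 5 reaches into the control range, and in the other 4 panels the groups overlap.

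In 5 members every lectin sample lay above every control sample, against 5.85% of genes tested. No member had all lectin samples below the controls, against 6.72% of genes, and 12.6% of genes separated in either direction. The values are counts divided by DESeq2 size factors, called normalized counts here. Under scaling by total counts or by upper quartile, KDX1 no longer separated the groups, and under scaling by total counts SVS1 did.

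PST1 (YDR055W, chrIV:563527-564861, + strand, 1 coding exon) encodes a GPI-anchored wall protein that regenerating protoplasts secrete. It was the most strongly raised member, with a lowest, median and highest value of 44385, 46769 and 50452 normalized counts with lectin, against 32217, 34762 and 37174 in the controls. The groups were far apart, and the lowest lectin sample lay well above the highest control. The means were 47166 ± 2234 with lectin and 34843 ± 1721 in the controls (SD, n = 6), equal to a log2 fold change of 0.44 ± 0.044 (SE; DESeq2 adjusted p = 4.2e-21). This was the 155th highest log2 fold change of all genes tested.

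PRM5 (YIL117C, chrIX:140613-141569, - strand) encodes a predicted membrane protein whose mRNA is known to respond to pheromone as well as to wall stress. Its lowest, median and highest values were 1869, 2007 and 2235 normalized counts with lectin, against 1599.8, 1663 and 1744 in the controls, without overlap. The highest value was that of lectin 5. The means were 2026 ± 125 with lectin and 1667 ± 58.7 in the controls (SD, n = 6), equal to a log2 fold change of 0.28 ± 0.048 (SE; DESeq2 adjusted p = 1.0e-07). Of 7 other membrane genes known as pheromone-regulated (FUS1, PRM1, PRM2, PRM3, PRM4, PRM6 and PRM10), 1 was called higher, PRM10 with a log2 fold change of 0.21, and none lower. At an adjusted p under 0.05 the rule called 15.4% of all genes higher, and the median log2 fold change over these 7 was 0.03.

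NCW2 (YLR194C, chrXII:540809-541573, - strand) encodes another GPI-anchored wall protein. It ranged from 18229 to 24927 normalized counts with lectin (median 21922) and from 17126 to 23191 in the controls (median 18488). The groups overlapped over most of their range, with control 7 the highest control and only lectin 4 above it. The log2 fold change was 0.17 ± 0.081 (SE) and its 95% interval ran from 0.01 to 0.33, but the adjusted p was 0.0916 in DESeq2. This call depended on single libraries: without control 7 the log2 fold change was 0.23 (adjusted p = 0.0052 in DESeq2), and without lectin 6 it was 0.21 (adjusted p = 0.0249 in DESeq2), while over all alternatives the adjusted p ran from 0.0014 to 0.243.

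SVS1 (YPL163C, chrXVI:241918-242700, - strand), a wall and vacuolar protein needed for normal vanadate resistance, went against the other members. Its lowest, median and highest values were 2759, 3639 and 4264 normalized counts with lectin, against 4217, 5161 and 5516 in the controls. Only lectin 5, the highest treated sample, and control 4, the lowest untreated one, overlapped. The means were 3476 ± 589 with lectin and 5032 ± 449.5 in the controls (SD, n = 6). The log2 fold change was -0.53 ± 0.098 (SE; DESeq2 adjusted p = 8.3e-07), the 59th lowest of all genes tested, and -0.60 without lectin 5.

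YPS1 (YLR120C, chrXII:386511-388220) and YPS3 (YLR121C, chrXII:388744-390270) encode yapsins, aspartic proteases anchored at the cell surface that process wall proteins. The genes are direct neighbours on the - strand, 523 bases apart. YPS3 was called higher, with a lowest, median and highest value of 6919, 7365 and 8573 normalized counts with lectin, against 5492, 5979.8 and 6567 in the controls. No sample overlapped, and lectin 2 was the highest. Its means were 7569 ± 642 with lectin and 5974 ± 417 in the controls (SD, n = 6), equal to a log2 fold change of 0.34 ± 0.062 (SE; DESeq2 adjusted p = 6.8e-07). YPS1 ranged from 9978 to 13897 normalized counts with lectin (median 12740.0) and from 11031 to 13001 in the controls (median 12275). The lectin samples lay on both sides of the controls, 3 above all of them and 2 below. The log2 fold change of YPS1 was 0.03 (95% interval -0.12 to 0.17), with an adjusted p of 0.833 in DESeq2. Of the 3 other yapsin genes, YPS6 was called higher at 0.15 (log2 fold change), and MKC7 (-0.08) and YPS7 did not pass. The same rule called 15.4% of all genes higher.

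KDX1 (YKL161C, chrXI:149386-150687, - strand) encodes a kinase-like relative of Slt2 that is itself made under Rlm1 control. Its lowest, median and highest values were 1071, 1148 and 1207 normalized counts with lectin, against 986, 1041 and 1067 in the controls. The separation was narrow, with lectin 2 just above control 8, and lectin 5 was the highest. The means were 1145 ± 43.7 with lectin and 1031 ± 31.05 in the controls (SD, n = 6), equal to a log2 fold change of 0.15 ± 0.044 (SE; DESeq2 adjusted p = 0.0028).

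PTP2 (YOR208W, chrXV:733925-736177, + strand) encodes a nuclear tyrosine phosphatase that removes the activating phosphate from Slt2 and from the osmotic stress kinase Hog1, so it acts as a brake on the pathway that induces it. Its lowest, median and highest values were 3985, 4213 and 4500.4 normalized counts with lectin, against 3085, 3357 and 3664 in the controls. The groups did not overlap and the lectin values were close together. The means were 4230.4 ± 181 with lectin and 3370 ± 193 in the controls (SD, n = 6), equal to a log2 fold change of 0.33 ± 0.046 (SE; DESeq2 adjusted p = 6.7e-11). The other phosphatases that act on the pathway, PTP3, MSG5 and SDP1, did not pass the test (0 of 3 higher and 0 of 3 lower). Of all genes, 15.4% were called higher and 16.1% lower. PTP3 had a log2 fold change of -0.02.

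The glucan synthase genes were the members with the least detectable change besides YPS1. GSC2 (YGR032W, chrVII:548264-553951, + strand), known as the stress form, ranged from 26895 to 35504 normalized counts with lectin (median 30598) and from 24838 to 33627 in the controls (median 29537). Lectin 2 and lectin 4 lay above all controls, and lectin 5 was the lowest treated sample. The log2 fold change was 0.06 ± 0.080 (SE), with a 95% interval of -0.09 to 0.22 and an adjusted p of 0.595 in DESeq2. FKS1 (YLR342W, chrXII:809997-815627, + strand), the form of growing cells, ranged from 30412 to 44628 normalized counts with lectin (median 42263) and from 37498 to 41704 in the controls (median 39983). Lectin 5 was below every control and 4 lectin samples were above every control. The log2 fold change of FKS1 was 0.02 ± 0.077 (SE), with a 95% interval of -0.13 to 0.17 and an adjusted p of 0.875 in DESeq2. Without lectin 5 it was 0.09, again past no threshold (adjusted p = 0.102 in DESeq2, with a range of 0.0797 to 0.993 over the alternatives). The intervals reach to a rise of 0.22 in GSC2 and of 0.17 in FKS1, so rises up to those sizes could not be told from none with these samples.

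GSC2 and FKS1 are the longest members, at 5688 and 5631 bp of coding sequence, and a correction of each sample for gene length moved them to -0.01 and -0.06 (log2 fold change). Their coding sequences are 81.6% identical over 5231 aligned bases, and how reads that fit both were counted is not given in the sources used here. FKS3, their divergent relative, was called higher, at a log2 fold change of 0.27 ± 0.083 (SE; DESeq2 adjusted p = 0.0065). SMI1, a regulator of wall synthesis, and ROM2, an exchange factor for Rho1, did not pass with all 12 samples, and RHO1 was called lower at -0.20 (log2 fold change). Without lectin 5 both were called higher, SMI1 at 0.11 (adjusted p = 0.0171 in DESeq2, with 0.0152 to 0.519 over the alternatives) and ROM2 at 0.17 (adjusted p = 0.0013, with 0.0013 to 0.442). Of 8 genes of calcineurin and its factor Crz1, the other known route to GSC2 induction, 0 were called higher and 0 lower with all 12 samples. The shares of all genes were 15.4% and 16.1%. The median log2 fold change of these 8 was -0.01. Without lectin 5, 2 of the 8 were called higher, the factor gene CRZ1 at 0.20 (adjusted p = 0.0324 in DESeq2, with 0.0031 to 0.275 over the alternatives) and the kinase gene CMK2 at 0.21 (adjusted p = 0.0356, with 0.00022 to 0.361). CRZ1 was also called higher without control 7 (DESeq2 adjusted p = 0.0437).

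**Figure D2:**
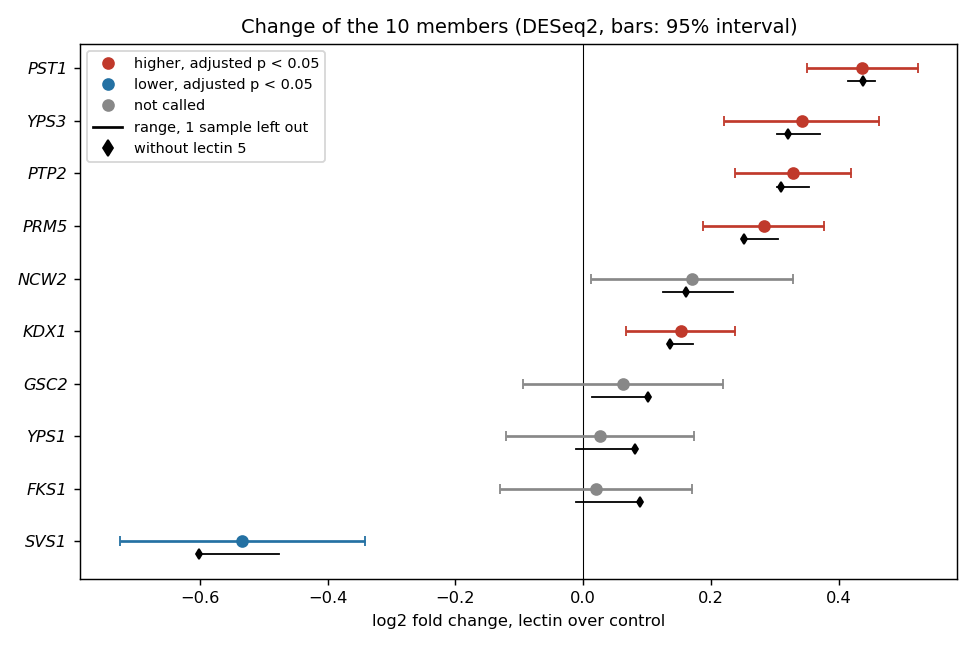
Log2 fold change of the 10 members, lectin over control, with the 95% interval, and below each the range over the 12 fits that each left out 1 sample, with a diamond for the fit without lectin 5. PST1, YPS3, PTP2, PRM5 and KDX1 lie above 0 and SVS1 below it, and the diamonds of YPS1, GSC2 and FKS1 sit at the upper end of their ranges.

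The coefficient of variation of normalized counts had a median of 9.58% over the members in the lectin group and 5.63% in the control group, from 3.82% in KDX1 to 16.9% in SVS1 with lectin and from 3.01% in KDX1 to 11.4% in NCW2 in the controls. Lectin 5 was the highest lectin sample in KDX1, PRM5, PTP2 and SVS1 and the lowest in YPS1, GSC2 and FKS1, at 30412 normalized counts in FKS1 against 39153 to 44628 in the other lectin samples.

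Levels were compared between genes as counts per kilobase of coding sequence and library total (RPKM). PST1 and NCW2 were the most abundant members, PST1 at 1916 ± 80.4 with lectin and 1417 ± 70.9 in the controls, and NCW2 at 1521 ± 145 with lectin and 1353 ± 137 in the controls (SD, n = 6). In the controls these neighbours in the order did not differ beyond their spread. FKS1 and YPS1 came next and were likewise level with each other, FKS1 at 389 ± 52.8 with lectin and 383 ± 14.8 in the controls. GSC2 stood at 297 ± 31.2 with lectin and 285 ± 29.8 in the controls. SVS1 was at 240.4 ± 38.2 with lectin, within its spread of YPS3 at 269 ± 20.3, and in the controls it was at 349 ± 26.3, above YPS3 at 212 ± 12.2. PRM5, PTP2 and KDX1 had the lowest levels, KDX1 the lowest at 47.7 ± 1.84 with lectin and 43.0 ± 1.70 in the controls.

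Relatives were then set against each other within each sample, which removes the scaling between libraries. Of 5 ratios of normalized counts, 4 differed between the groups (exact two-sided permutation tests over samples, adjusted over the 5). PST1 over ECM33, its relative and a wall protein needed for normal wall structure, had a log2 ratio of -0.00 ± 0.18 with lectin and -0.59 ± 0.16 in the controls (SD, n = 6). The difference was 0.59 (exact p = 0.0022, adjusted p = 0.0036), and all 6 lectin samples lay above every control. Per kilobase, PST1 stood at 0.817 to 1.12 times ECM33 with lectin and at 0.520 to 0.717 times in the controls. ECM33 itself had a log2 fold change of -0.15 ± 0.072 (SE; DESeq2 adjusted p = 0.0907), and without lectin 5 it was called lower at -0.20 (adjusted p = 0.0055 in DESeq2, with 0.0055 to 0.237 over the alternatives).

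PTP2 over PTP3 had a log2 ratio of 2.22 ± 0.10 with lectin and 1.87 ± 0.11 in the controls (SD, n = 6). The difference was 0.35 (exact p = 0.0022, adjusted p = 0.0036), and every lectin sample lay above every control. KDX1 over SLT2 went down, with a log2 ratio of -2.58 ± 0.11 with lectin and -2.33 ± 0.070 in the controls (SD, n = 6). The difference was -0.24 (exact p = 0.0022, adjusted p = 0.0036). All 6 lectin samples lay below every control, but narrowly, with lectin 8 at -2.436 and control 7 at -2.429. KDX1 and SLT2 were both called higher, and SLT2 more so. The exact p of 0.0022 is the smallest that 6 against 6 samples can give.

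YPS1 over YPS3 had a log2 ratio of 0.70 ± 0.26 with lectin and 1.02 ± 0.11 in the controls (SD, n = 6), a difference of -0.32 (exact p = 0.0216, adjusted p = 0.0271). Whether it passed depended on the samples included. Without control 2, 3 or 4 the adjusted p was 0.0595 (exact permutation test), although the difference stayed between -0.31 and -0.30. Over the alternatives the adjusted p ran from 0.0108 to 0.156. The highest came from a sign-flip test on the 5 numbers that both groups share, which cannot go below an exact p of 0.0625. GSC2 over FKS1 did not differ beyond the spread, with log2 ratios of -0.37 ± 0.15 with lectin and -0.42 ± 0.13 in the controls (SD, n = 6; difference 0.05, exact permutation p = 0.517, adjusted 0.517). Per kilobase, GSC2 stood at 0.685 to 0.875 times FKS1 with lectin and at 0.647 to 0.806 times in the controls. By these counts GSC2 was not low against FKS1 in the untreated cultures, but how reads that fit both genes were counted is not given.

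**Figure D3:**
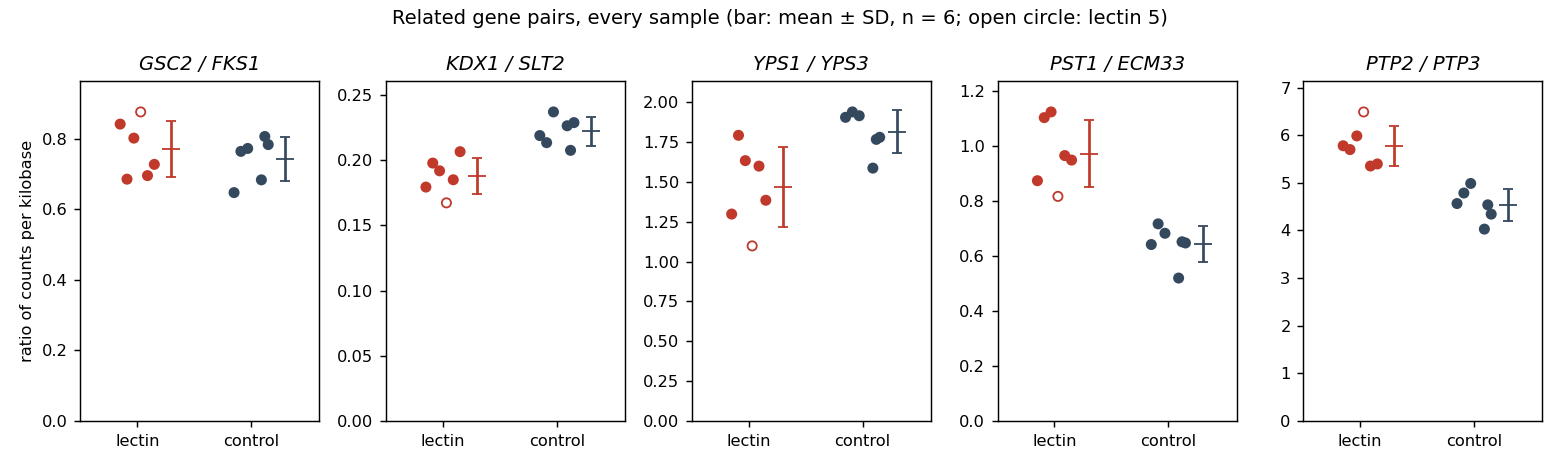
Ratio of counts per kilobase between related genes in each of the 6 lectin and 6 control samples, on linear axes from 0, with mean and SD beside the points. PST1 over ECM33 and PTP2 over PTP3 are higher in every lectin sample than in any control, KDX1 over SLT2 is lower in every lectin sample, YPS1 over YPS3 is lower with overlap, and GSC2 over FKS1 overlaps.

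The relay that leads to Rlm1 was also read at the level of mRNA. RLM1 (YPL089C) rose to 4606 ± 697 normalized counts with lectin, against 3182 ± 220 in the controls (SD, n = 6), equal to a log2 fold change of 0.53 ± 0.084 (SE; DESeq2 adjusted p = 5.8e-09). SLT2 (YHR030C), the kinase that activates Rlm1, rose to 6841 ± 636 normalized counts with lectin, against 5193 ± 158 in the controls (SD, n = 6), equal to a log2 fold change of 0.40 ± 0.057 (SE; DESeq2 adjusted p = 7.3e-11). In both genes every lectin sample lay above every control, as in 5.85% of genes tested. The log2 fold change of RLM1 was larger than that of any member called higher, a difference that was not tested.

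Of 21 relay genes, 7 were called higher and 2 lower, with a median log2 fold change of 0.09. Besides RLM1 and SLT2, the higher ones were the sensor gene MID2 (0.34), the MAP kinase kinase gene MKK2 (0.23), and SAC7, MTL1 and ROM1, which are named although the rule for naming did not select them. The calls of the last pair were marginal. ROM1, at 0.12 (DESeq2 adjusted p = 0.0492), did not pass in edgeR (adjusted p = 0.0706), with the gene length correction (DESeq2 adjusted p = 0.147) or in 10 of the 12 fits that left out 1 sample, all but those without lectin 5 or control 6. MTL1, at 0.15 (DESeq2 adjusted p = 0.0259), did not pass when lectin 2, 3 or 4 or control 2, 4, 6 or 8 was left out (adjusted p up to 0.0786). The lower ones were RHO1 (-0.20) and the sensor gene WSC1 (-0.12). In both, all lectin samples lay below the controls, as in 6.72% of genes tested. The genes of protein kinase C (PKC1), of the kinases Bck1 and Mkk1 and of the SBF subunits Swi4 and Swi6 did not pass the main DESeq2 test with all 12 samples. Without lectin 5, 9 relay genes were called higher, PKC1 (0.14, DESeq2 adjusted p = 0.0182, with 0.0182 to 0.462 over the alternatives) and ROM2 among them. The lower ones were then 4, with the sensor genes WSC2 (-0.31, DESeq2 adjusted p = 0.0072, with 0.0010 to 0.176 over the alternatives) and WSC4 (-0.39, DESeq2 adjusted p = 0.0373, with 0.00092 to 0.147). WSC2 and WSC4 were also called lower without lectin 2, WSC4 without control 3 or control 4, and MKK1 was called higher without control 8 (DESeq2 adjusted p = 0.0300). With all 12 samples, WSC4 was called lower in edgeR (adjusted p = 0.0422) and in limma-voom (adjusted p = 0.0421). With 1 surrogate variable, WSC4 and WSC2 were called lower (DESeq2 adjusted p = 0.0046 and 0.0087) and MKK1 higher (0.0118). Scaling by total counts also called WSC2 lower (DESeq2 adjusted p = 0.0484). The share of relay genes called, 9 of 21, stands beside the 31.5% of all genes.

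Of 11 other wall genes often listed as targets of the pathway, 4 were called higher and 0 lower, beside 15.4% and 16.1% of all genes. Their median log2 fold change was 0.10. The higher ones were PIR1 (0.43), an alkali-extractable wall protein, SED1 (0.24), an abundant GPI wall protein, the glucan-chitin cross-linker CRH1 (0.20), and DFG5 (0.19), which acts in attaching GPI proteins to the wall. CWP1, HSP150, PIR3, CIS3, CCW14, BGL2 and CHS3 did not pass. Some of these wall genes were higher and others did not pass the test, and none was called lower, unlike SVS1 among the members.

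SVS1 was not the only gene around the pathway to be lower. Of 7 genes driven at the start of the cell cycle by SBF and its relative MBF, 4 were called lower, PCL1 (-0.59), CLN2 (-0.51), RNR1 (-0.44) and CLN1 (-0.27), and PCL2 was called higher (0.17), with a median log2 fold change of -0.27. The cyclin gene CLN2 fell to 2281 ± 80.8 normalized counts with lectin, against 3250.3 ± 179 in the controls (SD, n = 6). RNR1, which encodes ribonucleotide reductase, fell to 4390 ± 157 normalized counts with lectin, against 5936 ± 612 in the controls (SD, n = 6). In the 4 lower genes the groups did not overlap. Over all genes tested, 16.1% were called lower and 15.4% higher, and 6.72% had all lectin samples below the controls. The part of the cell cycle in the member genes' values was not tested.

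**Figure D4:**
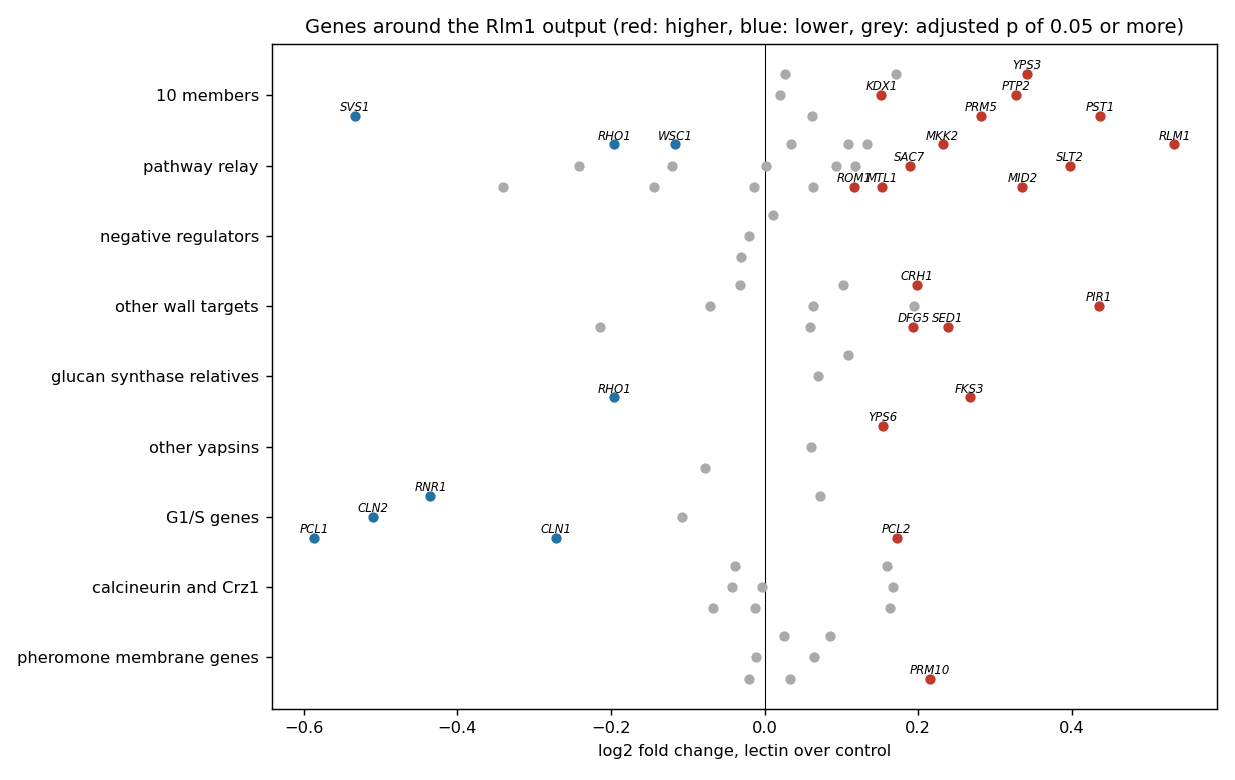
Log2 fold change, lectin over control, of the 10 members and of 8 lists of genes around the pathway, 1 point a gene, with red for higher and blue for lower at an adjusted p under 0.05, and grey for genes that did not pass. RLM1 at 0.53, SLT2 at 0.40, PIR1 at 0.43 and PST1 at 0.44 lie farthest to the right, and PCL1, SVS1, CLN2 and RNR1 farthest to the left. The list of calcineurin genes holds no called gene with all 12 samples. Nor does that of negative regulators, which is limited to PTP3, MSG5 and SDP1, with PTP2 shown among the members.

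Over the 8 lists, with each gene counted once, 15 of 62 genes were called higher and 6 lower with all 12 samples, and 20 and 8 without lectin 5. Leaving out any 1 sample gave 13 to 20 higher and 6 to 8 lower. These are 24.2% and 9.68% of the listed genes, beside 15.4% and 16.1% of all genes, and the difference was not tested. The median log2 fold change was 0.06 over the listed genes and 0.00 over all genes.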

How the data were processed

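RNA of 12 yeast cultures, described as biological replicates, was sequenced as paired-end reads from poly-A selected, strand-specific libraries. Reads were trimmed with fastp, aligned with HISAT2 and counted per gene with featureCounts on build R64, per the submitters' processing notes and the series' design text. Versions, annotation, strand setting and the handling of multi-mapping reads are not given in the sources used here. The deposited values are raw counts, 1 column a sample, and no column was left unmapped. Gene names, coding lengths and sequences came from RefSeq R64, which matched 6047 of 7192 identifiers. No member overlaps another annotated gene there. With strand-blind counting, reads from the opposite strand would be included.

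The test covered the 6237 genes that reached 10 counts in 6 samples or more, with DESeq2 1.42.0 (R 4.3.3; Wald test, unshrunken log2 fold changes, Benjamini-Hochberg adjustment over all genes), the tool that the design text names. 95% intervals are the estimate plus or minus 1.96 SE. Alternatives used edgeR 4.0.16, limma 3.58.1 (voom) and sva 3.50.0, other scalings and filters, a correction for gene length, a replicate block and each sample left out. Scripts were tested on simulated data, with 66 or 67 genes changed at each size. There, 74.6% of log2 changes of 0.25 and 95.5% of those of 0.5 were recovered, and 9.09% of the calls were false. The simulation changed a far smaller share of genes than the 31.5% called in the data, so these rates need not hold there. Ratios were tested by exact permutation of the 924 splits. Any 2 samples of a group differed by more than sampling noise (chi-square per degree of freedom of at least 6.66 over 30 pairs). Reads copied by PCR do not count independent molecules. Identity between coding sequences came from blastn (BLAST 2.17.0).

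The members and lists were chosen with earlier results of these data known. Besides the 10 members, the genes named are those called in each list, at most 4 a direction by size, the relatives SLT2, ECM33, PTP3, FKS3 and MKC7, and RLM1. Genes named as not passing with all 12 samples, and SAC7, MTL1 and ROM1, fall outside that rule.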

Additional observations from a re-analysis of the deposited data

Results flagged for a closer look

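Of 30 groups of 6 values (the normalized counts of the 10 members and the 5 ratios, in each of the groups), 1 had a sample whose gap to its nearest neighbour was above Dixon's 95% limit, where chance alone gives about 1 in 20, or 1.5. It was the log2 ratio of PST1 to ECM33 in control 6, at -0.89 against -0.59 to -0.43 in the other controls. It lay farther from the lectin samples than the other controls, and without control 6 the difference between the groups was 0.53 on the log2 scale.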

How the results depend on the processing

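The count of members called was 5 higher and 1 lower in every setting tried except those that also called NCW2. It was 5 to 6 higher and 1 lower when 1 sample was left out, 6 higher with the gene length correction, and 6 higher on the 10 samples with shared numbers and no replicate block. Over 250 refitted values of the members, 232 had the same sign and the same call, 6 (all NCW2) gained the call, 2 (both KDX1, with the block) lost it, and 10 turned sign, all in genes that did not pass the test. YPS1 was -0.027 (log2 fold change) with 1 surrogate variable and ranged from -0.011 to 0.080 when 1 sample was left out. GSC2 was -0.014 with the gene length correction. FKS1 was -0.028 with 1 surrogate variable, -0.060 with the gene length correction, -0.012 with the block and that correction together, and ranged from -0.011 to 0.089 when 1 sample was left out. Over 525 refitted values of the 21 other genes that the naming rule selects, 514 kept sign and call, 5 gained the call, all in ECM33, and 1 turned sign, in PTP3. The other 5 lost the call, all with the replicate block (WSC1 and YPS6 with and without the length correction, PCL2 without it). PTP3 ranged from -0.036 to 0.0012. For overlap, samples were left out of the same normalized counts without a new fit. This cannot make separated groups overlap, so the 5 members separated higher could not become fewer, and they stayed 5. Members separated lower numbered 0 to 1, SVS1 being the 1 without lectin 5 or without control 4. Members with no overlap numbered 4 higher with upper-quartile or total-count size factors, and 1 lower with total counts. The median log2 fold change of all genes stayed within 0.1 of 0 under each scaling. DESeq2 size factors take most genes as unchanged, so with them this outcome was largely fixed in advance.

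Numbers 2, 3, 4, 6 and 8 were given to a sample in each group, with nothing in the labels on what a number marks. Residuals around the group means had a mean correlation of -0.05 over the 5 same-numbered pairs (from -0.24 to 0.27), and 2 of those 10 samples correlated best with their own number, so the samples were treated as unpaired. The fit with a replicate block called 852 genes higher and 880 lower, against 1155 and 1180 on the same 10 samples without it, and KDX1 then had a log2 fold change of 0.12 (DESeq2 adjusted p = 0.156). For the 5 ratios, a sign-flip test within the 5 numbers cannot go below an exact p of 0.0625, so no ratio could pass. The mean differences were then -0.23 for KDX1 over SLT2, -0.25 for YPS1 over YPS3, 0.65 for PST1 over ECM33 and 0.32 for PTP2 over PTP3. YPS1 over YPS3 ranged from -0.38 to -0.24 when 1 sample was left out. What lies behind these shifts was not tested. Depth did not limit the members, whose lowest raw count was 924, but changes smaller than the intervals given for GSC2, FKS1 and YPS1 were not detectable.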
